A study of Rattus norvegicus with 6 samples.

Results

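The genes described are 8 members of the antigen presentation machinery of the rat, measured in RNA of the rostral ventromedial medulla, sequenced after poly-A capture. This brainstem region sends descending fibres to pain-transmitting neurons. They were chosen by Ensembl identifier as Cd74 (ENSRNOG00000018735), RT1-Da (ENSRNOG00000032844), RT1-Ba (ENSRNOG00000000451), B2m (ENSRNOG00000017123), Tap1 (ENSRNOG00000000457), Tap2 (ENSRNOG00000000455), Psmb8 (ENSRNOG00000000456) and Psmb9 (ENSRNOG00000000459), and all 8 were found among the 22976 genes of the deposited table. The 3 CFA libraries came from rats given 50 µL of complete Freund's adjuvant, an oil emulsion of killed mycobacteria that inflames tissue, into the temporomandibular (jaw) joint on both sides. The 3 saline libraries came from rats given the same volume of saline at the same sites, and both groups were taken on day 3. The sources used here give neither strain, sex and age nor whether each library is a separate animal, so every p-value covers the spread among these 6 libraries, and that spread may be technical.

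MHC class I molecules show peptides from inside the cell to CD8 T cells, and MHC class II molecules show peptides from endosomes to CD4 T cells. The proteasome cuts proteins into peptides, the TAP transporter moves them into the endoplasmic reticulum, and class I heavy chains bind them together with beta-2-microglobulin. Class II alpha and beta chains are held by the invariant chain until they reach endosomes. In the brain, class II is known mainly from activated microglia and from macrophages at vessels and meninges, and interferon-gamma is the best known inducer of both pathways. In bulk tissue, more cells that express a gene and more of its RNA per cell cannot be told apart.

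The promoters are shown first because 6 of the 8 genes lie in the MHC region of chromosome 20, where RefSeq lists Tap2, Psmb8, Tap1 and Psmb9 next to each other with no other gene between them. RefSeq promoter windows of the GRCr8 assembly, from 250 bases before to 50 after a gene's start, were found by symbol for all 8 genes. The stretches below are those with the most motif bases in 6 of them, written 5′ to 3′ on the gene's strand. Capitals mark matches, on either strand, to GAAANNGAA (a core bound by interferon regulatory factors, IRF) or GGACTTTCC (part of a common NF-kB site). They also mark, on either strand, TGACGTCA (a CRE, as in the X2 box of class II promoters) and CCAAT (as in their Y box). A CCAAT match need not be a Y box, and other forms of these motifs and boxes were not looked for.
RT1-Da, chr20:4515313-4515422, plus strand: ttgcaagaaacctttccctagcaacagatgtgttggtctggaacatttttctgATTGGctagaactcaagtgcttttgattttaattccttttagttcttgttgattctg
RT1-Ba, chr20:4576946-4577055, plus strand: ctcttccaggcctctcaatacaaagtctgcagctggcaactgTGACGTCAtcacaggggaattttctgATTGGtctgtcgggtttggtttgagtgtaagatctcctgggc
B2m, chr3:129549161-129549270, plus strand: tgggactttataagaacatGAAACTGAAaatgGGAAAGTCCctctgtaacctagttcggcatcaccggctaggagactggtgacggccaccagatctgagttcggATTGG
Tap1, chr20:4668572-4668681, minus strand: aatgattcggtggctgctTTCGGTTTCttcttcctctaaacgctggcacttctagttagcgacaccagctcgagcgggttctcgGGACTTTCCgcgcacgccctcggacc
Tap2, chr20:4652279-4652388, minus strand: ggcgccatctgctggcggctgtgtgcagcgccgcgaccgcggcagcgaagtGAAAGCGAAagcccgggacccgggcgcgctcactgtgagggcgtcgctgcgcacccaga
Psmb8, chr20:4657002-4657111, minus strand: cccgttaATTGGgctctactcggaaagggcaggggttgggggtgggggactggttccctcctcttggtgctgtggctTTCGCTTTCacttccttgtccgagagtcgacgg

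The IRF core was found in 4 of the 8 windows, those of B2m, Tap1, Tap2 and Psmb8, and in 9.71% of all 33465 windows of the same length. GGACTTTCC, the only NF-kB form looked for, was found in B2m and Tap1 and in 102 (0.305%) of all windows. The CRE was found in RT1-Ba and in 1.83% of all windows. CCAAT, a common promoter element, was found in 6 of the 8 windows and in 37.5% of all windows. A further motif, TTCNNNGAA (the GAS element bound by STAT dimers), was found in Psmb8 and in 8.87% of all windows, and none of these matches in the 8 windows shared bases. A match describes the letters and is not evidence of binding. The genes with neither an IRF nor a GGACTTTCC match were Cd74, RT1-Da, RT1-Ba and Psmb9. They had the 4 largest ratios of mean FPKM, CFA over saline, of the 8 genes, from 5.66 (Psmb9) to 17.1 (RT1-Da). Any relation of the matches to the changes was not tested.

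Some windows shared longer runs, which were picked as the longest over all pairs of these windows and both strands. How often windows of other genes share runs as long was not counted. The window counts below thus do not show that a run is rarer than such a search would find, above all for runs of 11 or 12 bases. Tap2 and Psmb8 had in common, on opposite strands, the 18 bases gaagtgaaagcgaaagcc, which hold the IRF core and were found in 2 of the 33465 windows, their own. RT1-Da and RT1-Ba shared the 12 bases ttttctgattgg, which hold the inverted CCAAT and were found in 11 windows. Cd74 and RT1-Ba shared, on opposite strands, the 11 bases ggggaactccc, which were found in 6 windows. This run holds no match to the motifs looked for, and other forms of NF-kB site were not looked for. Tap1 and Psmb9 are read in opposite directions from starts 457 bases apart, and their windows overlap by 44 bases. The Psmb9 window held no IRF or NF-kB match. The Tap1 matches lie between the starts of both genes, but more than 250 bases from the Psmb9 start and thus outside its window. The motifs were not part of the plan, and the shared runs were looked for after the expression values were known. The shares of all windows are thus given as a description and not as a test.

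**Figure D1:**
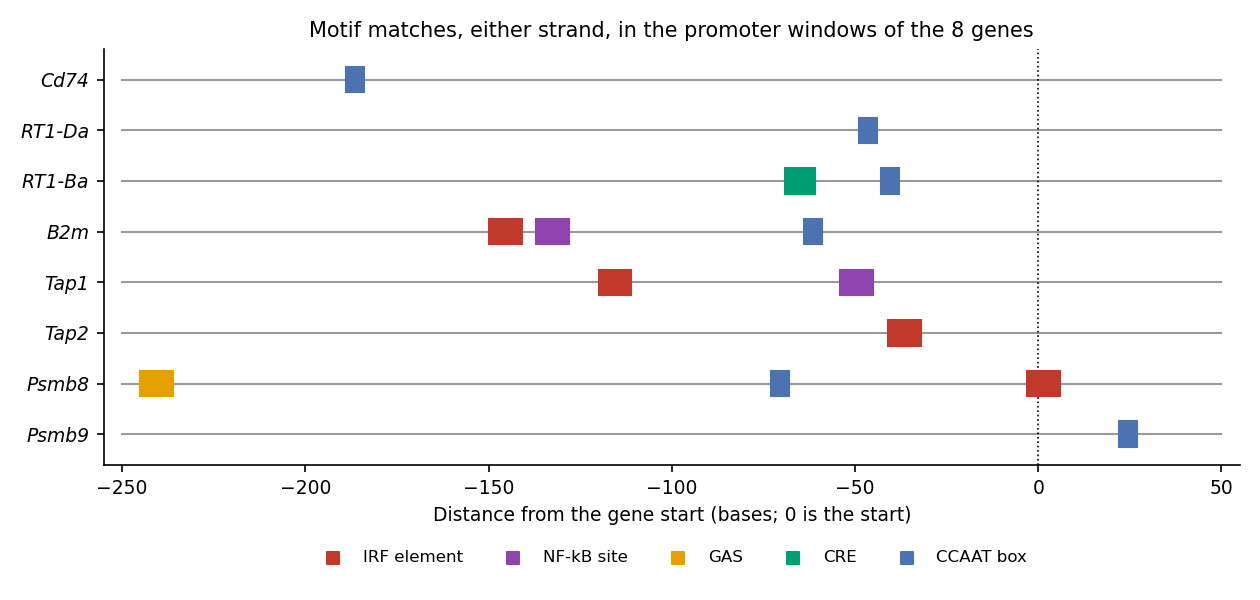
Motif matches on either strand in the promoter windows of the 8 genes, with the distance from the gene start in bases on the x axis and 1 gene per row. IRF cores (red) stand in B2m, Tap1, Tap2 and Psmb8, and matches to GGACTTTCC (NF-kB, purple) in B2m and Tap1.

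FPKM (fragments scaled to gene length and library total) moves in whole steps, and those steps gave library totals of 27534174 to 38260153 fragments in CFA and 34440104 to 44977905 in saline. The labels do not say if both mates of a pair were counted as 1 fragment. If mates were counted apart, counting intervals would be too narrow and multiples of counting noise too high. Markers of the tissue and of other cell types, among them microglia, macrophages and T cells, were not analysed here, because no table used here pairs the identifiers with symbols, and their part in the results was not tested. The symbols of the 8 genes came with their selection, and the pairing of identifier and symbol was not checked against an annotation.

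All 8 genes were higher in CFA than in saline, and no CFA value of any of them was as low as a saline value. Each passed an adjusted p of 0.05 (limma on log2(FPKM + 1), Benjamini-Hochberg over the 13566 genes that averaged 1 FPKM or more), where 18.8% of all genes tested were called in either direction and 11.3% as higher. At least 2-fold on the FPKM + 1 scale, 6 of the 8 were called, against 1.34% of all genes. The median log2 change of the 8 was 1.27 and that of all genes tested 0.012. Groups that did not overlap, with CFA higher, were seen in 21.2% of all genes tested. The 8 genes were chosen with earlier results of these data known, so their counts beside these shares are a description. RT1-Da and Psmb9 averaged under 1 FPKM in saline and met the filter through their CFA values. With no filter on level (22976 genes, 6.47% called higher), all 8 were called as well. The same held with limma's voom on fragments, where 15.1% of 13501 genes were called higher.

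The 3 class II genes had the largest ratios and log2 changes of the 8, while B2m had the largest difference in FPKM. Cd74 encodes the invariant chain, which guides class II molecules to endosomes and is also a receptor for the cytokine MIF. It stood at 21.6, 19.8 and 21.2 FPKM in CFA replicates 1, 2 and 3, against 1.45, 1.78 and 1.37 FPKM in saline replicates 1, 2 and 3. The lowest CFA library was thus 11.2 times the highest saline library. The group means were 20.9 ± 0.952 FPKM in CFA and 1.53 ± 0.214 FPKM in saline (SD, n = 3 each), a ratio of 13.6. The change in log2(FPKM + 1) was 3.11 (SE 0.069, adjusted p = 6.75e-08, limma), which ranked 6 among the 13566 genes tested. These levels rested on 4743 fragments over the CFA libraries and 412 over the saline libraries.

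RT1-Da encodes the alpha chain of the rat class II molecule RT1-D, the counterpart of human HLA-DR. Its FPKM was 4.11, 4.18 and 4.80 in CFA, against 0.244, 0.215 and 0.307 in saline. Every CFA library lay at least 13.4 times above every saline library. The means were 4.36 ± 0.379 FPKM in CFA and 0.255 ± 0.0471 FPKM in saline (SD, n = 3 each). Their ratio, 17.1, was the largest of the 8 genes. On the log2(FPKM + 1) scale, which understates changes of low genes, RT1-Da rose by 2.09 (SE 0.0806, adjusted p = 1.63e-06, limma). On fragments, with limma's voom, the log2 change was 4.08 (SE 0.220). Its saline level was the lowest of the 8 genes and rested on 43, 29 and 46 fragments, with a 95% exact Poisson interval of 0.212 to 0.306 FPKM over the group, which covers counting error only and takes each fragment as independent.

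RT1-Ba encodes the alpha chain of the other class II molecule, RT1-B, the counterpart of human HLA-DQ. It had 7.32, 6.75 and 8.27 FPKM in CFA, against 0.869, 1.20 and 1.04 FPKM in saline, and the groups were well apart. It averaged 7.45 ± 0.764 FPKM in CFA and 1.04 ± 0.164 FPKM in saline (SD, n = 3 each), a ratio of 7.19. Its change in log2(FPKM + 1) was 2.05 (SE 0.0892, adjusted p = 3.31e-06, limma). RT1 genes differ in sequence between rat strains and have close relatives in the MHC region, so the assignment of fragments to RT1-Da and RT1-Ba is uncertain.

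B2m encodes beta-2-microglobulin, the light chain shared by class I molecules. It was by far the most abundant of the 8 genes. It stood at 253.5, 247.6 and 248.5 FPKM in CFA, against 149.5, 151.1 and 148.6 FPKM in saline. Within each group the libraries were close, with a coefficient of variation of 1.27% in CFA and 0.861% in saline. The means were 249.8 ± 3.17 FPKM in CFA and 149.7 ± 1.29 FPKM in saline (SD, n = 3 each), a ratio of 1.67 and a difference of 100.1 FPKM. The change in log2(FPKM + 1) was 0.73 (SE 0.0148, adjusted p = 5.30e-08, limma), with a 95% confidence interval of 0.70 to 0.77. By unadjusted p, B2m ranked 13 of the 13566 genes, ahead of Cd74 at 23, although it ranked only 306 by log2 change. That order depended on the setting. Without the variance trend, the adjusted p (limma) was 3.47e-05 for B2m and 4.13e-06 for Cd74. Without saline replicate 2 it was 1.10e-06 for B2m and 3.99e-07 for Cd74 (limma). No other alternative put Cd74 ahead by adjusted p.

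Tap1 and Tap2 encode the subunits of the peptide transporter, which works as a pair of both. Tap1 had 3.14, 3.95 and 3.18 FPKM in CFA, against 0.884, 1.17 and 0.943 FPKM in saline. CFA replicate 2 and saline replicate 2 were the highest of their groups, and the groups did not overlap. Tap1 averaged 3.42 ± 0.458 FPKM in CFA and 1.00 ± 0.153 FPKM in saline (SD, n = 3 each), a ratio of 3.42, with a log2 change of FPKM + 1 of 1.14 (SE 0.0971, adjusted p = 0.000151, limma). Tap2 changed least of the 8 genes. It had 3.44, 3.86 and 3.94 FPKM in CFA, against 2.56, 2.61 and 2.77 FPKM in saline, so that the lowest CFA library was 1.24 times the highest saline library. Tap2 averaged 3.75 ± 0.266 FPKM in CFA and 2.65 ± 0.112 FPKM in saline (SD, n = 3 each), a ratio of 1.42. Its change in log2(FPKM + 1) was 0.38 (SE 0.0649, adjusted p = 0.0057, limma), with a 95% confidence interval of 0.23 to 0.53.

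Psmb8 and Psmb9 encode catalytic subunits that take the place of constitutive ones in the immunoproteasome, a form of the proteasome that favours peptides suited to class I. Psmb8 had 5.46, 5.74 and 6.55 FPKM in CFA, against 2.32, 1.496 and 2.09 FPKM in saline. Saline replicate 2 was the lowest, with 73 fragments, and every CFA library was at least 2.35 times every saline library. Psmb8 averaged 5.92 ± 0.568 FPKM in CFA and 1.97 ± 0.426 FPKM in saline (SD, n = 3 each), a ratio of 3.01, with a log2 change of FPKM + 1 of 1.23 (SE 0.113, adjusted p = 0.000229, limma).

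Psmb9 was lower in level and differed more as a ratio. It had 2.54, 2.93 and 2.36 FPKM in CFA, against 0.431, 0.415 and 0.535 FPKM in saline. The groups were separated by a factor of at least 4.41. It averaged 2.61 ± 0.294 FPKM in CFA and 0.460 ± 0.0647 FPKM in saline (SD, n = 3 each), a ratio of 5.66. The change in log2(FPKM + 1) was 1.302 (SE 0.0885, adjusted p = 4.15e-05, limma), and with voom on fragments it was 2.48 (SE 0.241). Its saline level rested on 106 fragments over the 3 libraries.

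**Figure D2:**
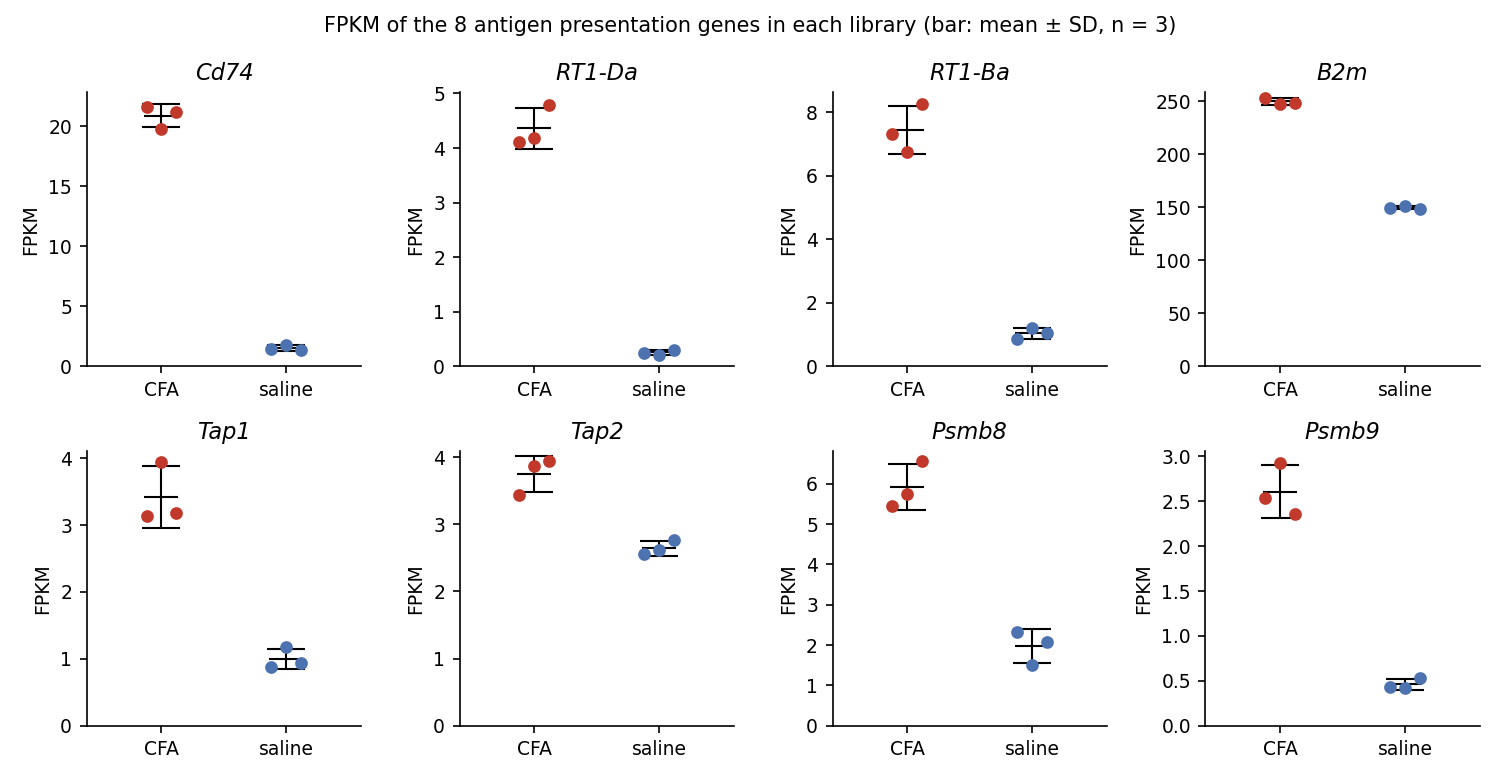
FPKM of each of the 8 genes by library, with CFA (red) and saline (blue) on the x axis, points for libraries and bars for the mean ± SD (n = 3). No CFA point of any gene lies at or below a saline point, and the groups are nearest in Tap2, where the lowest CFA library is 1.24 times the highest saline library.

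By log2 change of FPKM + 1 the genes ranked 6 (Cd74), 27 (RT1-Da), 29 (RT1-Ba), 102 (Psmb9), 121 (Psmb8), 137 (Tap1), 306 (B2m) and 701 (Tap2) among the 13566 genes tested. The 3 class II genes thus stood ahead of the 5 genes of the class I pathway on this scale. Of the 8 genes, 6 had a mean of 1 to 5 FPKM over the 6 libraries, the exceptions being Cd74 and B2m. Among the 4979 genes tested at 1 to 5 FPKM, 10.8% were called higher in CFA and the median log2 change was 0.035.

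**Figure D3:**
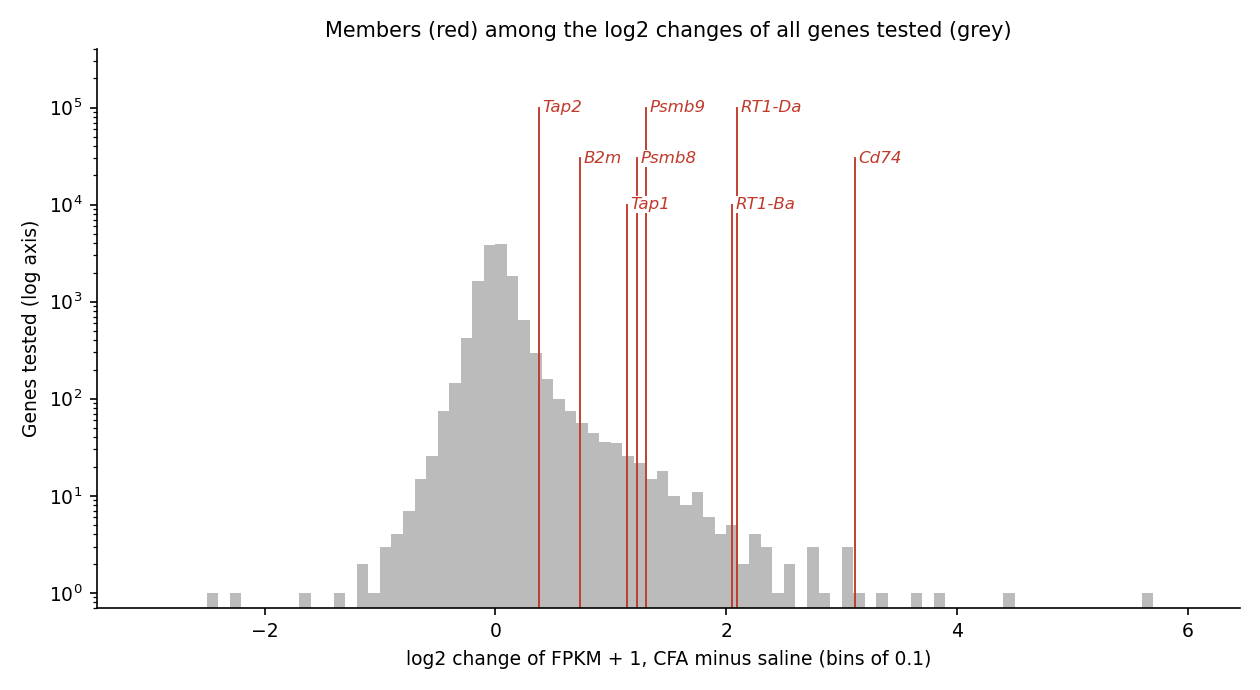
Distribution of the log2 change of FPKM + 1 (CFA minus saline, bins of 0.1) over the 13566 genes tested, with the number of genes on a log axis, and the 8 genes as red lines. The red lines run from 0.38 (Tap2) to 3.11 (Cd74), to the right of the bulk of the genes, whose median is 0.012.

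The order of the levels differed between the groups. FPKM is given per length, so levels can be set side by side between genes as far as the gene models hold. In CFA the order was B2m, Cd74, RT1-Ba, Psmb8, RT1-Da, Tap2, Tap1 and Psmb9, and only Tap2 and Tap1 had overlapping values among neighbours. In saline it was B2m, Tap2, Psmb8, Cd74, RT1-Ba, Tap1, Psmb9 and RT1-Da, and the values of Psmb8 and Cd74 and of RT1-Ba and Tap1 overlapped. Cd74 was thus the second in CFA and the fourth in saline, and RT1-Da the fifth in CFA and the last in saline. B2m was 11.97 times the next gene in CFA and 56.6 times the next in saline. It made up 83.8% of the summed mean FPKM of the 8 genes in CFA and 94.4% in saline.

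Because genes with related products changed by unequal amounts, 4 ratios of FPKM between pairs of them were computed in each library. That choice was made after the values had been seen. Tap1 and Tap2 encode subunits of the same transporter, and Psmb9 and Psmb8 of the same proteasome form. RT1-Ba and RT1-Da encode alpha chains of different class II molecules, so their ratio does not compare partners within a complex. Cd74 encodes the invariant chain, which holds class II chains. With 3 libraries against 3, a two-sided exact permutation test cannot go below p = 0.1, so none of the ratios could pass 0.05. Tap1 over Tap2 was 0.910, 1.02 and 0.806 in CFA, against 0.346, 0.450 and 0.340 in saline. Tap1 was thus close to Tap2 in CFA and well under it in saline. The mean log2 ratio was 1.28 higher in CFA, or 2.42-fold (exact permutation p = 0.1, adjusted p = 0.133 over the 4 ratios).

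Psmb9 over Psmb8 was 0.465, 0.510 and 0.359 in CFA, against 0.186, 0.278 and 0.256 in saline, with no overlap. The mean log2 ratio was 0.90 higher in CFA, or 1.86-fold (exact permutation p = 0.1, adjusted p = 0.133). RT1-Ba over RT1-Da was 1.78, 1.62 and 1.72 in CFA, against 3.56, 5.58 and 3.39 in saline. The mean log2 ratio was thus lower in CFA, with a difference of -1.26 (exact permutation p = 0.1, adjusted p = 0.133), and saline replicate 2 held the highest value. Cd74 over RT1-Da was 5.26, 4.74 and 4.42 in CFA, against 5.94, 8.28 and 4.48 in saline. The groups overlapped, with saline replicate 3 within the CFA range. The difference in mean log2 ratio, -0.33 (exact permutation p = 0.3, adjusted p = 0.3), was within the spread of the saline libraries. It lay between -0.55 and -0.10 with each library left out in turn.

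**Figure D4:**
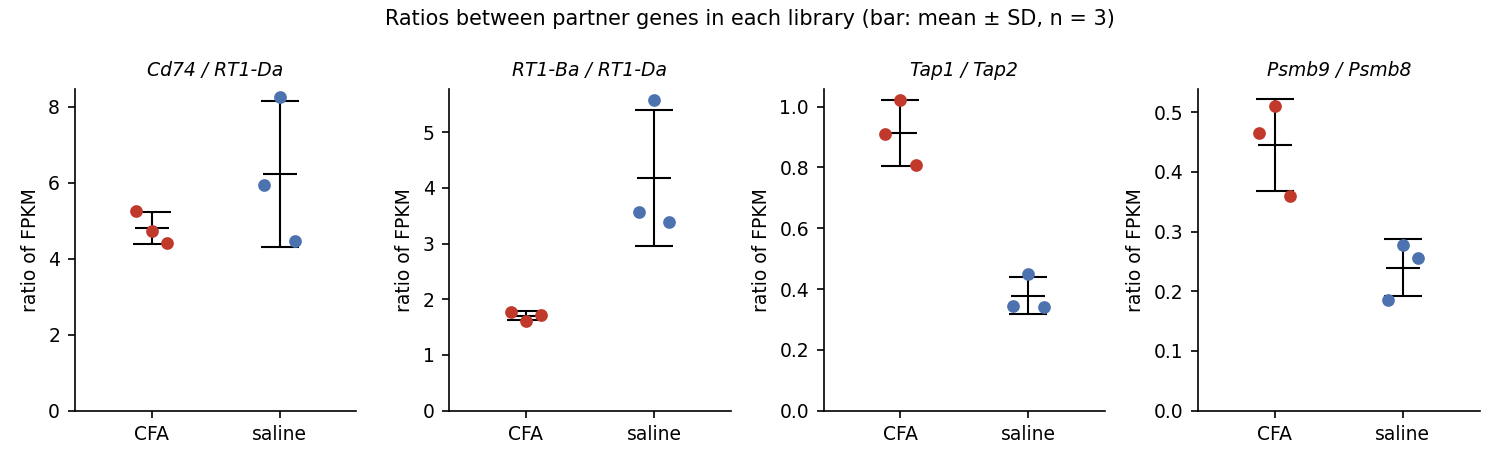
Ratios of FPKM between pairs of the genes in each library, with CFA (red) and saline (blue) on the x axis. Points are libraries and bars the mean ± SD (n = 3). Tap1 over Tap2 and Psmb9 over Psmb8 are higher in every CFA library, and RT1-Ba over RT1-Da is lower in every CFA library. For Cd74 over RT1-Da the groups overlap, and the lowest saline value of 4.48 lies within the CFA range.

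The spread within groups was near or a few times counting noise. In fragments, the variance between the 3 libraries of a group was 1.64 (Tap2) to 5.47 (Tap1) times counting (Poisson) noise, taking each fragment as independent, in CFA and 0.467 (Tap2) to 4.85 (Psmb8) times in saline. In FPKM, the coefficient of variation was 1.27% (B2m) to 13.4% (Tap1) in CFA and 0.861% (B2m) to 21.6% (Psmb8) in saline. The relative spread was wider in saline for 6 of the 8 genes, and narrower for B2m and Tap2. Fragments were fewer in saline for each gene and ranged from 497 (Psmb9) to 47881 (B2m) over the CFA libraries and from 106 (Psmb9) to 34350 (B2m) over the saline libraries.

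The pattern of the 8 genes over the 6 libraries, taken as the mean of their standardised log2(FPKM + 1) values, had a Pearson correlation of 0.976 to 0.999 with the single genes that form it. Among 13558 other genes tested, 231 had a correlation above 0.99 with that pattern over the same 6 libraries. Such values mostly reflect the difference between the groups, since the 6 points fall into 2 groups of 3. The nearest was ENSRNOG00000011971, with 8.89 ± 0.363 FPKM in CFA and 2.03 ± 0.110 FPKM in saline (SD, n = 3 each), and after it ENSRNOG00000062419, with 344.3 ± 1.26 FPKM in CFA and 314.4 ± 0.848 FPKM in saline. Their log2 changes of FPKM + 1 were 1.71 and 0.13, so likeness of pattern did not mean likeness of size. Neither identifier is paired with a name in the tables used here.

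The size of the change depended on the scale used, and its direction did not in the alternatives run. Because the groups of each gene did not overlap, most alternatives could not have changed the direction. Among these were each library left out and other pseudocounts, filters, moderation or block. RT1-Da had log2 changes from 1.93 with quantile scaling to 4.08 with voom on fragments, and Psmb9 from 1.14 with quantile scaling to 2.48 with a pseudocount of 0.01 FPKM. B2m, the most abundant of the 8, ranged only from 0.72 to 0.76, and Tap2 from 0.30 to 0.50. With each library left out in turn, Cd74 stayed between 3.07 and 3.18 and Tap2 between 0.35 and 0.43.

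**Figure D5:**
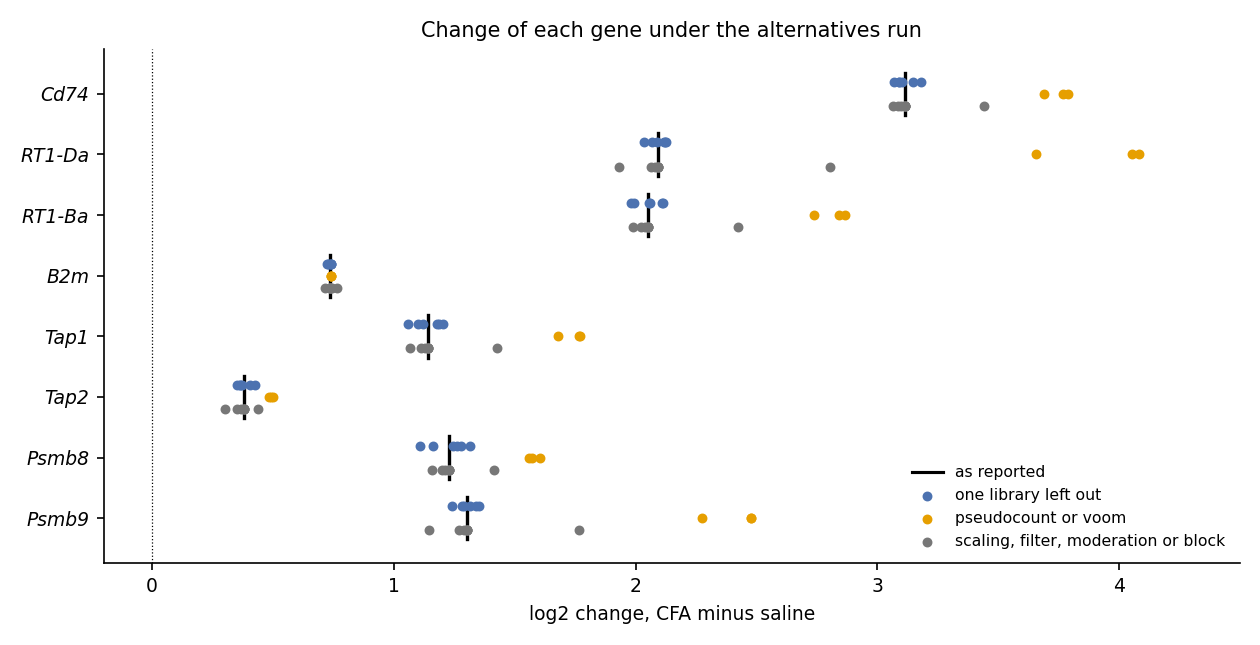
Log2 change (CFA minus saline) of each gene on the x axis as reported (black line) and under the alternatives run (points), coloured by kind. All points lie above 0, and RT1-Da spans 1.93 to 4.08 while B2m spans 0.72 to 0.76.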

How the data were processed

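The authors deposited FPKM values of 22976 genes under Ensembl identifiers, with 1 column per library. The genome build was mRatBN7.2 and the tools named are HISAT2 2, DESeq2 1.30.1, fastp 0.21.0 and StringTie 2, per the submitters' processing notes, which state no order. Annotation release, strand setting and treatment of shared reads: not given in the sources used here. Groups came from the titles. Members and lists were chosen with earlier results of these data known.

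Genes averaging 1 FPKM or more (13566) were fitted as log2(FPKM + 1) with limma 3.58.1 in R 4.3.3 (eBayes with a trend, two-sided, 4 residual degrees of freedom), Benjamini-Hochberg adjusted. The FPKM of 22911 genes (99.7%) came out as whole fragments within 0.0001, and these served for totals, spread and voom. Fit and recovery were tested on simulated data. Of the 22976 identifiers, 0 are in the RefSeq table, so the planned pathway lists, cell type markers and ratios to constitutive proteasome subunits were not run. All 8 members were always to be named. The rule that the 5 genes most alike be named needed symbols, and 2 identifiers are given instead. Python 3.11.15 (numpy 2.4.6, pandas 2.3.3, scipy 1.17.1, matplotlib 3.10.9) made tables and figures.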

Additional observations from a re-analysis of the deposited data

How the results depend on the processing

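All 8 genes kept a positive log2 change and an adjusted p under 0.05 (limma) in each alternative in which they were tested: other pseudocounts, no filter, median ratio, TPM-like, quantile and cyclic loess scaling, moderation without a trend or robust, voom on fragments, the replicate block and each library left out. The sign was fixed in advance for most of these, since the groups of each gene did not overlap. With a mean of at least 5 FPKM, only Cd74 and B2m were tested, so 2 genes were called, 1 of them at least 2-fold. The counts of 8 called and 6 at least 2-fold were the lowest and highest without each library in turn, where all genes called numbered 1758 to 1997, against 2545 with all libraries. The largest adjusted p was 0.0253, for Tap2 without saline replicate 1. In the replicate block fit 8 of the 8 genes were called, and 2086 of all genes. Deviations of same-numbered libraries were not correlated (-0.0214 to 0.0229 across genes), and the meaning of the numbers is not in the labels. Ratios between pairs of the genes, added after seeing the data, kept their direction with each library left out. Only Cd74 over RT1-Da, whose groups overlapped, could have reversed. TPM-like scaling leaves such ratios as they are by construction. Depth limits the saline levels of RT1-Da and Psmb9 most. Alternatives for the pathway lists and for ratios to constitutive subunits were not run for want of symbols.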
